A study of Mus musculus with 12 samples.

Results

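The 36 genes described here make and store fat in the liver: they carry carbon into fatty acids, lengthen and desaturate the chains, join them to glycerol, and coat, fuse or break down the lipid droplets that hold the product. They were taken by name from a table of 23909 genes, by a rule that used no measured value. In the liver, citrate from sugar is split to give acetyl-CoA, which acetyl-CoA carboxylase and fatty acid synthase turn into palmitate. The transcription factors SREBP-1 and ChREBP, encoded by Srebf1 and Mlxipl, are known to raise these genes after a meal, in response to insulin and to glucose. Fatty acids made in this way or taken up from blood become triglyceride, which is kept in droplets or leaves the cell in lipoproteins.

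Liver RNA came from C57BL/6 mice of 2 vendors, Jackson and Taconic, sampled after 4 weeks of shared housing. Jackson mice kept with Jackson mice are called JAX and Taconic mice kept with Taconic mice TAC, while CoJAX are Jackson mice caged with Taconic mice and CoTAC are Taconic mice caged with Jackson mice. Each of the 4 groups had 3 libraries, and the labels name no drug and no engineered allele. The series asks how differing gut microbes bear on liver gene expression, and cage mates are known to exchange gut microbes. Colonies of 2 vendors may differ in genetic background as well as in gut microbes, and a vendor difference cannot tell these apart. The labels do not say that each library is a separate animal, so the p-values below describe the spread of these libraries, part of which may be technical. Cage, age, sex, diet and time of day were not among the labels used here.

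Values are RPKM, reads scaled by gene length and library size, listed for replicates 1, 2 and 3 in that order. Libraries held roughly 1510000 to 3730000 reads. All 3 JAX libraries and TAC 1 were the shallowest, at 0.7581 to 1 times the depth of JAX 1 against 1.0541 to 1.8788 times in the other 8, and they stood apart: the small RNA gene Mir703 read 6106 to 10054 RPKM there against 2179 to 3951 RPKM in the rest. No JAX library was as deep as any CoJAX library, so depth and cohousing cannot be told apart between these groups. Albumin mRNA multiplied by relative depth lay between 869 and 968 in every library, a level near which high values flattened. Of the 36 genes 10 averaged above 25% of albumin, where differences may be understated or, between groups of unlike depth, shifted. Over all 770 genes above that level the median log2 difference was -0.44 for CoJAX against JAX and -0.41 for CoTAC against TAC. It was -0.28 for TAC against JAX and -0.25 for CoTAC against CoJAX. What part this level has in lower values of abundant genes, such as Thrsp and Cideb, was not tested. Hepatocyte markers were present in every library (8 genes, summed level 3007 to 6150 RPKM), and in bulk liver fewer cells of a type cannot be told apart from less RNA per cell.

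Of the 36 genes 35 entered the test, and the exception was Pnpla3, which did not reach 1 RPKM in 3 libraries. Differences are given as log2(RPKM + 0.5) ± SE from limma-trend, with Benjamini-Hochberg adjustment over all genes tested and a threshold of 0.05. Between CoJAX and JAX, 7 of the 35 passed: Acly, Elovl2, Fads1, Fads2, Gpam and Plin5 were higher in CoJAX and Mlxipl was lower. Of all genes 24.1% passed, 12.7% higher and 11.5% lower, against 17.1% of the 35 higher and 2.86% lower. With depth in the fit, 0 of the 35 and 39 of all 12058 genes passed; 2878 genes had an unadjusted p under 0.05 in that fit. Between TAC and JAX only Me1 passed, lower in TAC (2.86% of the 35 against 4.09% of all genes, or 1.71% lower).

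The difference between Taconic and Jackson mice averaged over both housings had 2 of the 35 genes past the threshold, Cd36 and Me1, both lower in Taconic mice (5.71% against 3.47% of all genes, or 1.93% lower). Between CoTAC and TAC limma-trend called 0 of them, when 0.647% of all genes passed. Unadjusted, 9 of the 35 had a p under 0.05, against 2964 of all 12058 genes. Limma-trend called 0 between CoTAC and CoJAX, when 0.0663% of all genes passed. Unadjusted, 5 of the 35 had a p under 0.05 there, against 1304 of all genes. For the interaction, which asks whether the vendor difference changed with housing, it called 0, with 4 unadjusted, and 0.0% of all genes passed (1358 unadjusted). Comparisons that share a group of libraries are not independent of each other. The median difference of the 35 genes was 0.01 for CoJAX against JAX, -0.08 for TAC against JAX, -0.09 for CoTAC against TAC and -0.20 for CoTAC against CoJAX. Over all genes the medians lay between -0.01 and 0.01.

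Complete separation of the libraries of both groups was counted as well. All CoJAX values lay above all JAX values for 8 of the 35 genes (22.9%, against 21.8% of all genes) and below for 5 (14.3% against 21.9%). TAC lay above JAX for 4 (11.4% against 14.4%) and below for 6 (17.1% against 11.8%). CoTAC lay above TAC for 5 (14.3% against 14.2%) and below for 3 (8.57% against 12.2%). CoTAC lay above CoJAX for 0 (9.07% of all genes) and below for 6, Acss2, Cd36, Cideb, Fads1, Fasn and Me1 (17.1% against 9.94%).

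**Figure D1:**
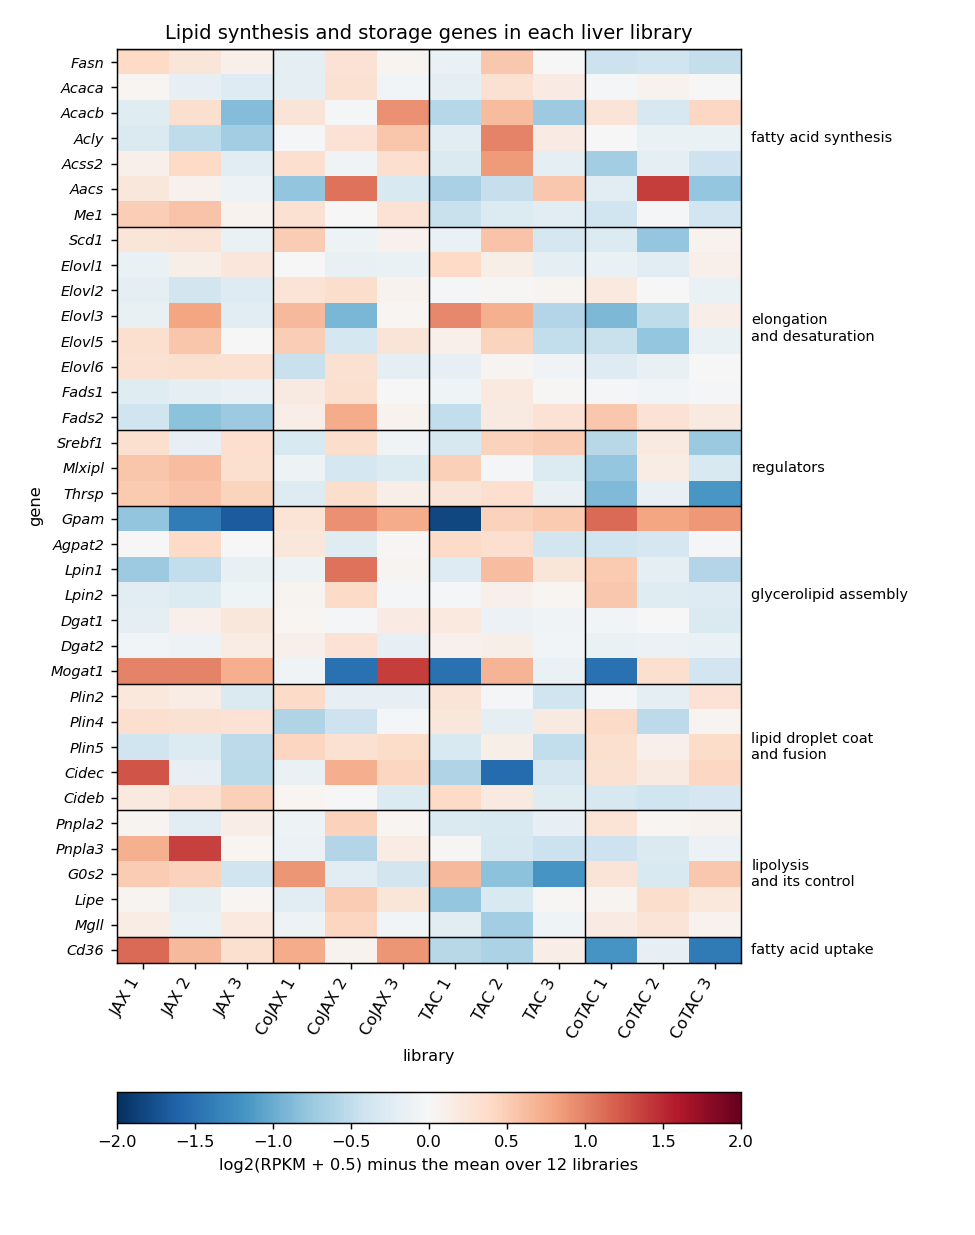
Log2(RPKM + 0.5) of the 36 genes (rows, by role) in the 12 libraries (columns, by group), each minus the gene's mean over the 12 libraries. Red is above and blue below that mean, and Gpam is below it in the 3 JAX libraries and TAC 1 and above it in the other 8.

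In fatty acid synthesis, Acly rose in cohoused Jackson mice and Me1 was lower in Taconic mice, while the other 5 of 7 genes passed no comparison. Acly encodes ATP citrate lyase, which makes cytosolic acetyl-CoA from citrate. It was listed at 62.6, 53.9 and 47.3 RPKM in JAX, 75.3, 93.8 and 113 RPKM in CoJAX, 66.2, 154 and 86.2 RPKM in TAC and 77.2, 69.8 and 69.9 RPKM in CoTAC. Every CoJAX and every TAC library lay above the 3 JAX libraries, and TAC 2 was the highest of all 12. CoJAX exceeded JAX by 0.77 ± 0.25 (adjusted p = 0.0438), while TAC against JAX stood at 0.81 ± 0.25 (adjusted p = 0.0779). In the fit with depth the CoJAX difference was 0.51 ± 0.31 (adjusted p = 0.351). With single libraries left out the call was lost without JAX 1, JAX 2, JAX 3, CoJAX 2, CoJAX 3, CoTAC 1, CoTAC 2 or CoTAC 3 (adjusted p = 0.0542, 0.0973, 0.133, 0.102, 0.142, 0.0548, 0.053 and 0.057), and it was also lost with no filter on low values (adjusted p = 0.0675).

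Me1 encodes the cytosolic malic enzyme, a source of the NADPH that fatty acid synthesis consumes. Its levels were 149, 157 and 111 RPKM in JAX, 131, 105 and 129 RPKM in CoJAX, 77.3, 87.4 and 89.8 RPKM in TAC and 80.0, 104 and 81.0 RPKM in CoTAC. TAC and JAX did not overlap, nor did CoTAC and CoJAX, and the Taconic mice were the lower ones each time. Me1 fell by 0.70 ± 0.15 in TAC against JAX (adjusted p = 0.0352) and stood at -0.47 ± 0.15 (adjusted p = 0.355) in CoTAC against CoJAX. Averaged over both housings the vendor difference was -0.58 ± 0.11 (adjusted p = 0.0263), and it was as large with depth in the fit, at -0.66 ± 0.12 (adjusted p = 0.0371). The call between TAC and JAX was lost without JAX 1, JAX 2, JAX 3, TAC 2, TAC 3 or CoJAX 3 (adjusted p = 0.0832, 0.096, 0.0546, 0.112, 0.0885 and 0.0507). It was also lost with quantile normalization and with only the 6 libraries compared (adjusted p = 0.0634 and 0.104). The averaged call was lost without JAX 2, TAC 2, CoJAX 1, CoJAX 3, CoTAC 1 or CoTAC 3 (adjusted p = 0.0549, 0.0585, 0.0754, 0.0637, 0.0723 and 0.0666) and with quantile normalization (adjusted p = 0.052), and the difference ranged from -0.66 to -0.53 over the 12 omissions.

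The textbook enzymes of palmitate synthesis gave no call. Fasn, fatty acid synthase, was listed at 63.3, 57.2 and 51.6 RPKM in JAX, 42.0, 58.6 and 50.1 RPKM in CoJAX, 43.9, 69.9 and 48.2 RPKM in TAC and 35.7, 36.5 and 34.4 RPKM in CoTAC. The 3 CoTAC values lay within 34.4 to 36.5 RPKM and below all 9 other libraries. The Fasn difference was -0.57 ± 0.17 (adjusted p = 0.105) for CoTAC against TAC and -0.48 ± 0.17 (adjusted p = 0.36) for CoTAC against CoJAX, and it missed the threshold in both. Acaca, the acetyl-CoA carboxylase that makes malonyl-CoA for synthesis, was listed at 15.9, 13.7 and 13.0 RPKM in JAX, 13.5, 19.4 and 15.0 RPKM in CoJAX, 13.6, 19.3 and 17.4 RPKM in TAC and 15.3, 16.4 and 15.5 RPKM in CoTAC. Its groups overlapped in all comparisons, and its 95% confidence interval for CoJAX against JAX ran from -0.20 to 0.50. Acacb, the carboxylase isoform tied to the control of fatty acid oxidation, ranged from 10.5 to 37.2 RPKM. Acss2, which makes acetyl-CoA from acetate, ranged from 74.7 to 221 RPKM, and Aacs, which activates acetoacetate for lipid synthesis, from 14.7 to 68.1 RPKM. The spread of these 3 within groups was wide: Aacs was 22.3, 68.1 and 14.9 RPKM in CoTAC.

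Of the 8 genes of desaturation and elongation, Fads2, Fads1 and Elovl2 were higher in cohoused Jackson mice and the other 5 did not pass. The 8 differences had a median of -0.06, with 4 above and 4 below 0. Elovl5, like those 3 an enzyme of polyunsaturated chains, stood at -0.16 ± 0.27 (adjusted p = 0.686). Fads2, the desaturase that opens the conversion of linoleic and alpha-linolenic acid, was listed at 149, 111 and 118 RPKM in JAX, 216, 328 and 205 RPKM in CoJAX, 139.8, 221 and 239 RPKM in TAC and 285, 241 and 222 RPKM in CoTAC. The 3 CoJAX values lay above all JAX values, and TAC 1 lay within the JAX range. Fads2 rose by 0.96 ± 0.23 (adjusted p = 0.0133) in CoJAX against JAX, and stood at 0.71 ± 0.27 (adjusted p = 0.15) with depth in the fit. Without CoJAX 2, the highest library, it was 0.75 (adjusted p = 0.0523).

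Fads1, the desaturase of the later step, was listed at 151, 156 and 162 RPKM in JAX, 202, 222 and 178 RPKM in CoJAX, 167, 204 and 181 RPKM in TAC and 175, 171 and 174 RPKM in CoTAC. JAX lay below every other library. Fads1 rose by 0.35 ± 0.11 in CoJAX against JAX (adjusted p = 0.0375) and stood at 0.41 ± 0.12 (adjusted p = 0.0904) with depth in the fit. The call was lost without JAX 1, JAX 2, JAX 3, CoJAX 1, CoJAX 2, CoTAC 1 or CoTAC 3 (adjusted p = 0.0959, 0.0924, 0.072, 0.08, 0.142, 0.0517 and 0.0536), and with only the 6 libraries compared (adjusted p = 0.0555). Fads1 also lay above JAX in all 3 TAC libraries and below CoJAX in all 3 CoTAC libraries, by 0.23 ± 0.11 (adjusted p = 0.208) and -0.20 ± 0.11 (adjusted p = 0.517).

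Elovl2 elongates very long polyunsaturated chains. Libraries held 143, 126 and 136 RPKM in JAX, 197, 208 and 170.2 RPKM in CoJAX, 158, 165 and 168 RPKM in TAC and 185, 163 and 148 RPKM in CoTAC. JAX was again below every other library. CoJAX exceeded JAX by 0.50 ± 0.11 (adjusted p = 0.012), against 0.51 ± 0.13 (adjusted p = 0.0754) with depth in the fit and 0.44 (adjusted p = 0.0505) without CoJAX 2. The interaction was -0.49 ± 0.16 (adjusted p = 0.298) for Elovl2 and -0.43 ± 0.16 (adjusted p = 0.33) for Fads1, so a difference between vendors in the response to cohousing was not shown.

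Scd1, the desaturase that makes oleate, gave no call. Its values were 358, 361 and 276 RPKM in JAX, 429, 281 and 321 RPKM in CoJAX, 274, 449 and 239 RPKM in TAC and 248, 176 and 317 RPKM in CoTAC. The groups overlapped, and the confidence interval for CoJAX against JAX ran from -0.54 to 0.62. Elovl6, which lengthens palmitate, was 26.2, 26.6 and 26.3 RPKM in JAX and 15.4, 26.1 and 18.4 RPKM in CoJAX, without overlap, at -0.42 ± 0.16 (adjusted p = 0.0758). Elovl1, an elongase of saturated very long chains, ranged from 47.8 to 73.2 RPKM and passed no comparison. Elovl3 and Elovl5 varied within groups and are described with the clock genes below.

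**Figure D2:**
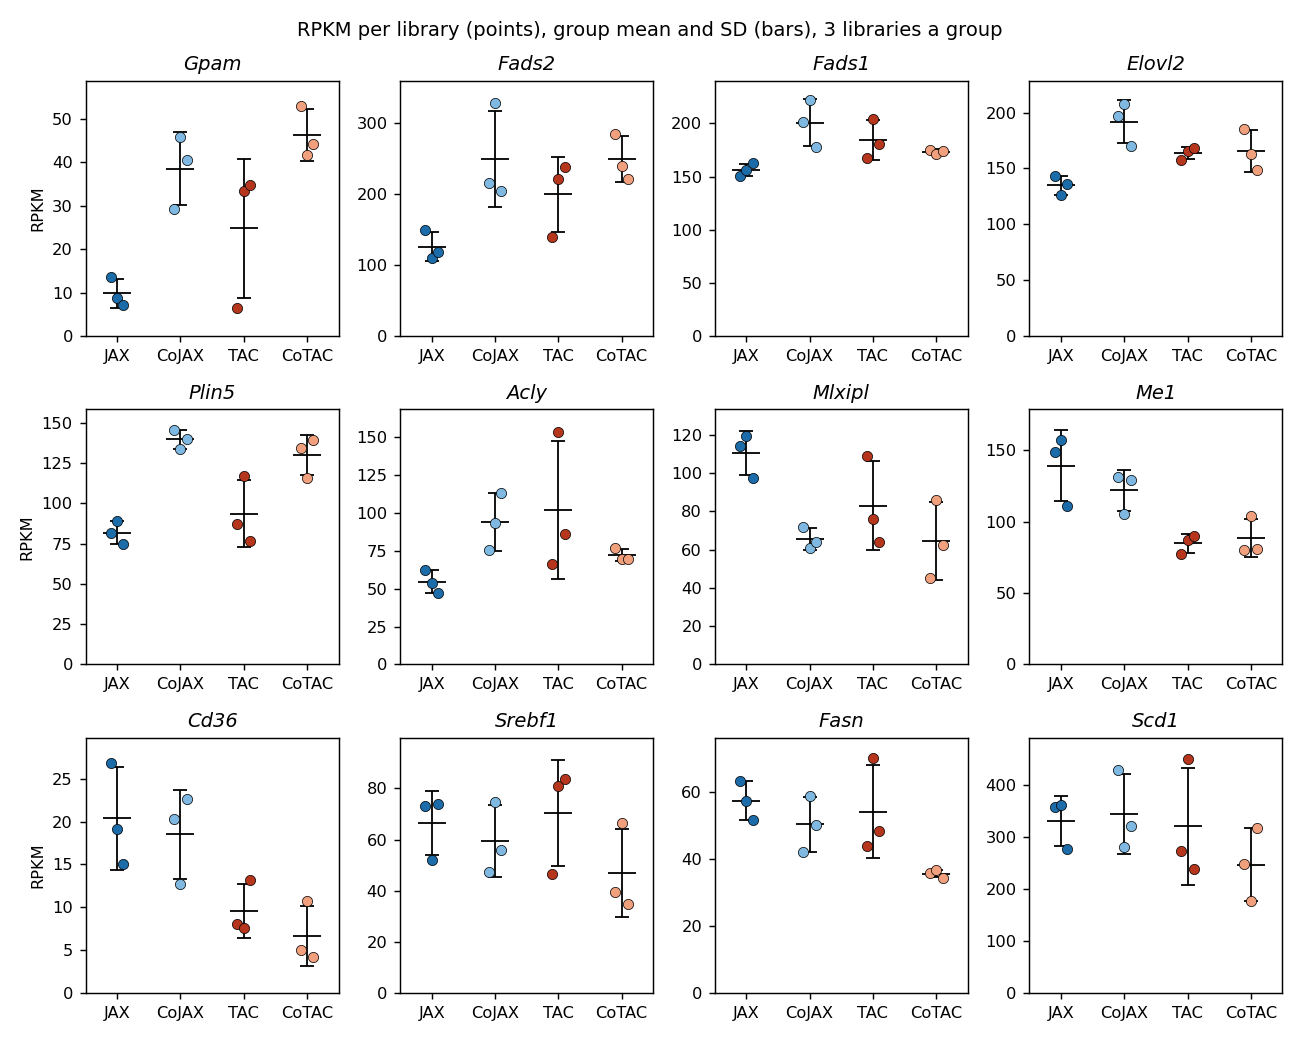
RPKM of 12 genes by group, with a point per library and the mean ± SD of the 3 libraries as bars. The 3 CoJAX points of Gpam, Fads2, Fads1, Elovl2, Plin5 and Acly lie above all JAX points, and those of Mlxipl lie below.

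Of the 3 regulators, Mlxipl was lower in cohoused Jackson mice and Srebf1 and Thrsp passed no comparison. Mlxipl was listed at 114, 119 and 97.6 RPKM in JAX, 72.0, 60.7 and 64.0 RPKM in CoJAX, 109, 75.9 and 64.0 RPKM in TAC and 45.2, 85.9 and 62.6 RPKM in CoTAC. JAX and TAC 1 were the 4 highest libraries. Mlxipl stood at -0.75 ± 0.22 (adjusted p = 0.0328) in CoJAX against JAX and at -0.51 ± 0.28 (adjusted p = 0.296) with depth in the fit. It missed the threshold without JAX 1, JAX 2, JAX 3, CoJAX 2 or CoJAX 3 (adjusted p = 0.0766, 0.0933, 0.0572, 0.0964 and 0.0822), and also with quantile normalization and with no filter on low values (adjusted p = 0.0526 and 0.0515). Srebf1 was listed at 73.3, 51.9 and 73.9 RPKM in JAX, 47.4, 74.9 and 56.0 RPKM in CoJAX, 46.5, 81.0 and 83.6 RPKM in TAC and 39.6, 66.4 and 34.6 RPKM in CoTAC. All groups overlapped, and the confidence interval for CoJAX against JAX ran from -0.78 to 0.45. Thrsp, whose product is linked to lipogenesis, was listed at 145 to 489 RPKM. Its CoTAC values were 177, 297 and 145 RPKM against 392, 415 and 295 RPKM in TAC, at -0.88 ± 0.24 (adjusted p = 0.092), and its averaged vendor difference was -0.58 ± 0.17 (adjusted p = 0.0736).

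In glycerolipid assembly, Gpam had the largest fitted difference of the 35 genes in CoJAX against JAX. Gpam encodes the mitochondrial glycerol-3-phosphate acyltransferase, which starts triglyceride synthesis. It was listed at 13.6, 8.77 and 7.23 RPKM in JAX, 29.3, 45.8 and 40.5 RPKM in CoJAX, 6.41, 33.4 and 34.8 RPKM in TAC and 53.1, 41.8 and 44.1 RPKM in CoTAC. JAX and TAC 1 held 6.41 to 13.6 RPKM and the other 8 libraries 29.3 to 53.1 RPKM, with no overlap, so the shallowest libraries were the lowest in both colonies. Gpam rose by 1.93 ± 0.50 in CoJAX against JAX (adjusted p = 0.0182), and the difference was 0.97 ± 0.49 (adjusted p = 0.256) with depth in the fit. CoTAC against TAC stood at 1.21 ± 0.50 (adjusted p = 0.173). The CoJAX call was lost without JAX 2, JAX 3, CoJAX 2 or CoJAX 3 (adjusted p = 0.0524, 0.0651, 0.0618 and 0.0525). Without TAC 1, TAC against JAX called 4 of the genes, Acly, Fads2, Gpam and Me1, in place of 1 (11.4% of the 35, against 17.6% of all genes in that fit).

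Agpat2, which adds the next acyl chain, and Dgat1 and Dgat2, which complete triglyceride, passed no group comparison. Dgat2 was listed at 281, 270.2 and 324 RPKM in JAX, 313, 358 and 260.4 RPKM in CoJAX, 309, 315 and 279.8 RPKM in TAC and 266, 269.5 and 265 RPKM in CoTAC. It had the narrowest range of the genes found in every library, 1.37-fold from the lowest to the highest library, and its confidence interval for CoJAX against JAX ran from -0.21 to 0.37. Dgat1 ranged from 28.3 to 40.5 RPKM. Lpin1, a phosphatidate phosphatase that yields diacylglycerol, was 66.8, 79.3 and 99.9 RPKM in JAX and 103, 237 and 116 RPKM in CoJAX, at 0.80 ± 0.34 (adjusted p = 0.107). Lpin2, of the same family, ranged from 94.0 to 166 RPKM. Mogat1, which acylates monoacylglycerol, was near the limit of detection, with 12 reads in JAX, 15 in CoJAX, 7 in TAC and 7 in CoTAC, and CoJAX 3 alone held 13 of them.

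The sequences just upstream of the start are shown for 3 genes that passed between CoJAX and JAX, since Gpam is a known SREBP-1 target and Mlxipl encodes a factor that binds E-boxes. They are RefSeq sequences of build GRCm38.p6, 200 bases ending at the base before the most upstream listed start (Gpam chr19:55127239-55127438, minus strand; Fads2 chr19:10101504-10101703, minus strand; Mlxipl chr5:135089690-135089889, plus strand), while the table itself was made on another build. Capitals mark matches, on either strand, to the E-box CACGTG, the sterol regulatory element core CACCCCAC, the CCAAT box CCAAT and the GC box GGGCGG.
Gpam: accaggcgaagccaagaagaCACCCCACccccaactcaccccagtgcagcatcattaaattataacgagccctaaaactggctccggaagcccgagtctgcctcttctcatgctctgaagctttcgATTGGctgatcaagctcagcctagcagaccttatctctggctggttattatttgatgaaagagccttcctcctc
Fads2: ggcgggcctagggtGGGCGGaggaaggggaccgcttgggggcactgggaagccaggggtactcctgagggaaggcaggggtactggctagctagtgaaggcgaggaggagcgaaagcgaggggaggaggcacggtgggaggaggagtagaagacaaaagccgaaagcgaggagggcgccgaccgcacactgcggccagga
Mlxipl: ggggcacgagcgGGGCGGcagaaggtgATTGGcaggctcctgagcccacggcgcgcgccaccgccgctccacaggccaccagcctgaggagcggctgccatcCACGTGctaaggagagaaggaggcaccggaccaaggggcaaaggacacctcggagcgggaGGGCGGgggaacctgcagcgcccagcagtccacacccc
Gpam held the sterol regulatory element core with its first base 180 bases upstream of the start and a CCAAT box 74 bases upstream. Fads2 held a GC box, and Mlxipl an E-box 98 bases upstream, a CCAAT box and GC boxes. In the 250 bases upstream, 31 of the 36 genes had a sequence at hand: 2 held the sterol regulatory element core (6.45%, against 2.98% of 27025 genes) and 5 an E-box (16.1% against 6.86%). CCAAT boxes were in 16 (51.6% against 37.5%) and GC boxes in 19 (61.3% against 35.4%). A match describes the letters of a window and shows no binding.

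**Figure D3:**
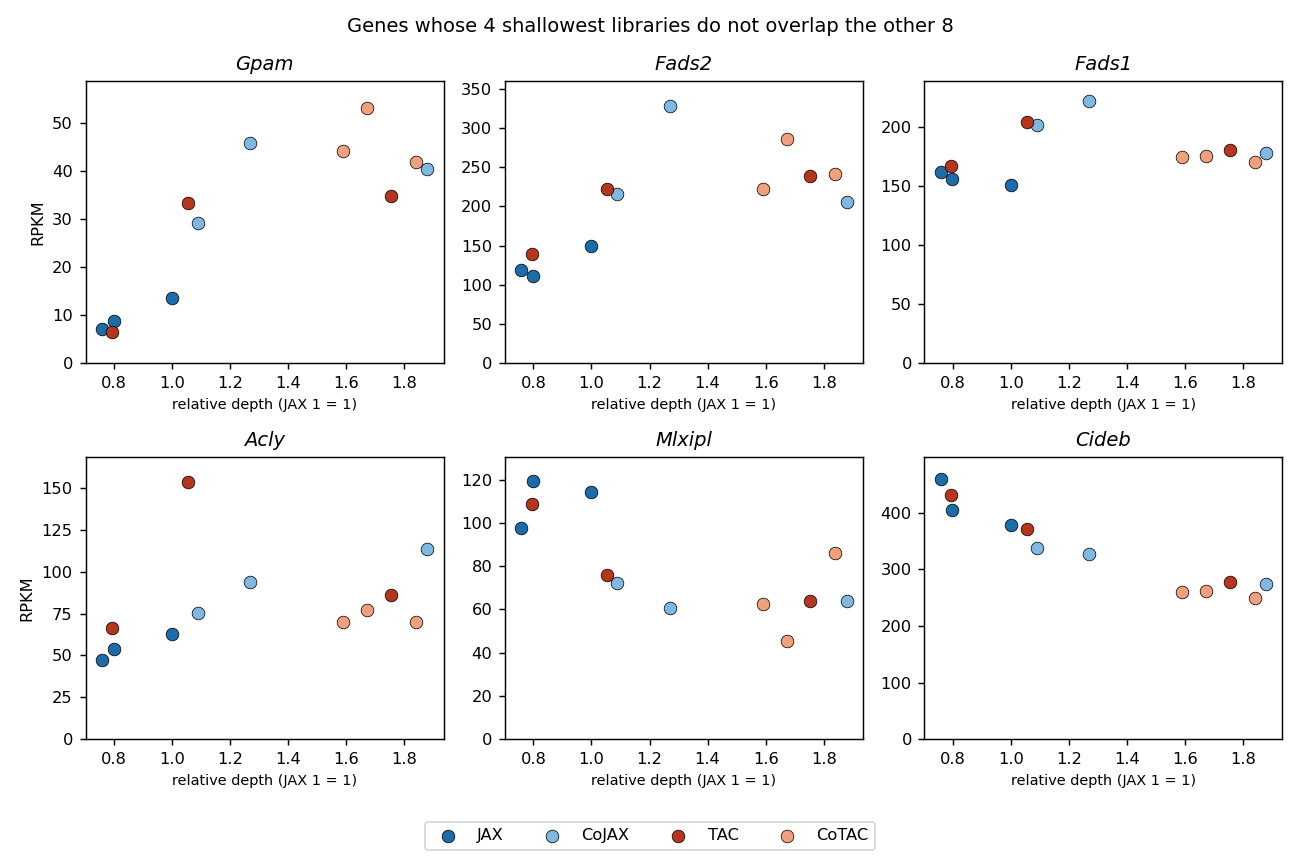
RPKM of 6 genes against the depth of the library relative to JAX 1, with a point per library. For each gene the 4 shallowest libraries, the 3 JAX libraries and TAC 1, do not overlap the other 8.

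Of the 5 genes of droplet coat and fusion, Plin5 alone passed a comparison. Plin5, a droplet coat protein of oxidative tissues that brings droplets to mitochondria, was listed at 81.9, 88.9 and 74.9 RPKM in JAX, 146, 134 and 139.8 RPKM in CoJAX, 87.5, 117 and 76.4 RPKM in TAC and 134, 116 and 139 RPKM in CoTAC. All CoJAX values lay above all JAX values, and the CoTAC values lay above TAC 1 and TAC 3. Plin5 rose by 0.77 ± 0.14 in CoJAX against JAX (adjusted p = 0.00674), and with depth in the fit the difference was 0.90 ± 0.17 (adjusted p = 0.0522), as large but above the threshold in p. Leaving out any single library kept the call, with adjusted p up to 0.0289. CoTAC against TAC was 0.49 ± 0.14 (adjusted p = 0.105).

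Plin2, the main droplet coat of hepatocytes, showed no such difference. Levels were 342, 326 and 242 RPKM in JAX, 387, 263 and 263 RPKM in CoJAX, 352, 292 and 225 RPKM in TAC and 287, 258 and 362 RPKM in CoTAC. The groups overlapped, and the confidence interval for CoJAX against JAX ran from -0.48 to 0.47. Plin4 was lower in every CoJAX than in every JAX library, at 2.90, 3.41 and 4.56 against 6.07, 5.93 and 5.81 RPKM, but missed the threshold, at -0.66 ± 0.24 (adjusted p = 0.0618). Cideb and Cidec encode droplet proteins of the CIDE family, Cideb being tied to lipoprotein loading and Cidec to droplet fusion. Cideb ranged from 249.9 to 459.5 RPKM, the shallowest libraries being the highest, and Cidec from 1.17 to 11.1 RPKM. Between the 4 shallowest libraries and the other 8, 6 of the 36 genes did not overlap (Acly, Cideb, Fads1, Fads2, Gpam and Mlxipl), as did not 22.3% of all genes.

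The genes of lipolysis passed no comparison in the fit reported. Pnpla2, the main triglyceride lipase, Lipe, hormone-sensitive lipase, and Mgll, the lipase of monoacylglycerol, were each higher in all CoTAC than in all TAC libraries. The same held for 14.2% of all genes. Pnpla2 was 105, 89.3 and 90.7 RPKM against 71.3, 70.3 and 77.0 RPKM, at 0.38 ± 0.15 (adjusted p = 0.156). Lipe stood at 0.55 ± 0.21 (adjusted p = 0.16) and Mgll at 0.49 ± 0.18 (adjusted p = 0.139). G0s2, an inhibitor of Pnpla2, ranged from 108 to 449 RPKM, with wide spread in every group. Pnpla2, Lipe and Mgll fell with the clock index described below and G0s2 rose with it. None passed (limma-trend, adjusted p = 0.199, 0.267, 0.136 and 0.294, unadjusted p = 0.0108, 0.0224, 0.00488 and 0.0284). The index was 4.28, 4.52 and -5.26 in TAC and -4.94, -4.74 and 2.73 in CoTAC. Its part in these differences was not tested.

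Pnpla3, a lipid droplet protein whose human counterpart is tied to fatty liver, was the rarest of the 36. It was counted at 7, 11 and 2 reads in JAX, 2, 0 and 6 in CoJAX, 2, 1 and 1 in TAC and 1, 2 and 3 in CoTAC, read back from the steps between values. JAX held 20 of its 38 reads, although its libraries were among the shallowest. With no filter on low values the difference was -0.95 ± 0.30 for TAC against JAX (adjusted p = 0.112) and -0.89 ± 0.30 for CoJAX against JAX (adjusted p = 0.0692), and neither passed.

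Cd36, a membrane protein that takes up fatty acids, was lower in Taconic mice. Cd36 read 26.9, 19.2 and 15.1 RPKM in JAX, 20.3, 12.7 and 22.6 RPKM in CoJAX, 8.01, 7.56 and 13.1 RPKM in TAC and 5.02, 10.7 and 4.21 RPKM in CoTAC. Apart from CoJAX 2, each Jackson library lay above each Taconic library. The mean was 20.4 ± 6.00 RPKM in JAX and 9.57 ± 3.10 RPKM in TAC (SD, n = 3), and 18.5 ± 5.19 RPKM in CoJAX and 6.64 ± 3.53 RPKM in CoTAC. Averaged over both housings the difference was -1.27 ± 0.24 (adjusted p = 0.0263), and it was -1.56 ± 0.24 (adjusted p = 0.023) with depth in the fit. Within housings it was -1.06 ± 0.34 (adjusted p = 0.0884) apart and -1.48 ± 0.34 (adjusted p = 0.188) cohoused. The averaged call was lost without JAX 2, TAC 2, CoJAX 1, CoJAX 3, CoTAC 1 or CoTAC 3 (adjusted p = 0.0549, 0.0634, 0.0754, 0.0671, 0.0741 and 0.0666), and the difference ranged from -1.46 to -1.14 over the 12 omissions.

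Other cells of the liver and fat tissue also express Cd36. Of 10 adipocyte markers 3 were tested and 0 passed, with 2 at an unadjusted p under 0.05 and a median of -0.44 for the averaged vendor difference; 6 stayed below 1 RPKM in every library, and Lep was at 0 in all. Their summed level was 86.7 to 124 RPKM in JAX, 46.9 to 68.6 in CoJAX, 57.7 to 77.4 in TAC and 22.7 to 70.7 in CoTAC, carried by Fabp4, Pparg and Cfd. Endothelial markers summed to 112 to 163 RPKM in JAX, 102 to 141 in CoJAX, 97.3 to 125 in TAC and 37.9 to 103 in CoTAC. None of the 6 endothelial markers passed, but 5 of 6 had an unadjusted p under 0.05 in CoTAC against CoJAX, with a median difference of -1.11, and 4 of 6 for the averaged vendor difference, with a median of -0.59. Stellate cell and fibroblast markers summed to 135 to 155 RPKM in JAX, 86.4 to 141 in CoJAX, 72.4 to 133 in TAC and 59.7 to 92.7 in CoTAC. For the averaged vendor difference 4 of 7 of these had an unadjusted p under 0.05 and 0 passed, with a median of -0.47. Kupffer cell and macrophage markers summed to 148 to 333, 163 to 215, 215 to 281 and 168 to 228 RPKM, with 0 of 7 past the threshold and 0 of 7 unadjusted for that difference. Of all 12058 genes, 3231 had an unadjusted p under 0.05 for the averaged vendor difference and 1304 for CoTAC against CoJAX. Of 7 leukocyte markers 5 were tested, and Cd79a passed for the averaged vendor difference, lower in Taconic mice. For that difference 3.47% of all genes passed. Unadjusted, 2 of the 5 had a p under 0.05, with a median of -0.66. The 7 summed to 7.99 to 22.6 RPKM in JAX, 5.86 to 10.2 in CoJAX, 4.39 to 9.33 in TAC and 3.4 to 6.51 in CoTAC. The part of these cells in the Cd36 difference was not tested.

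**Figure D4:**
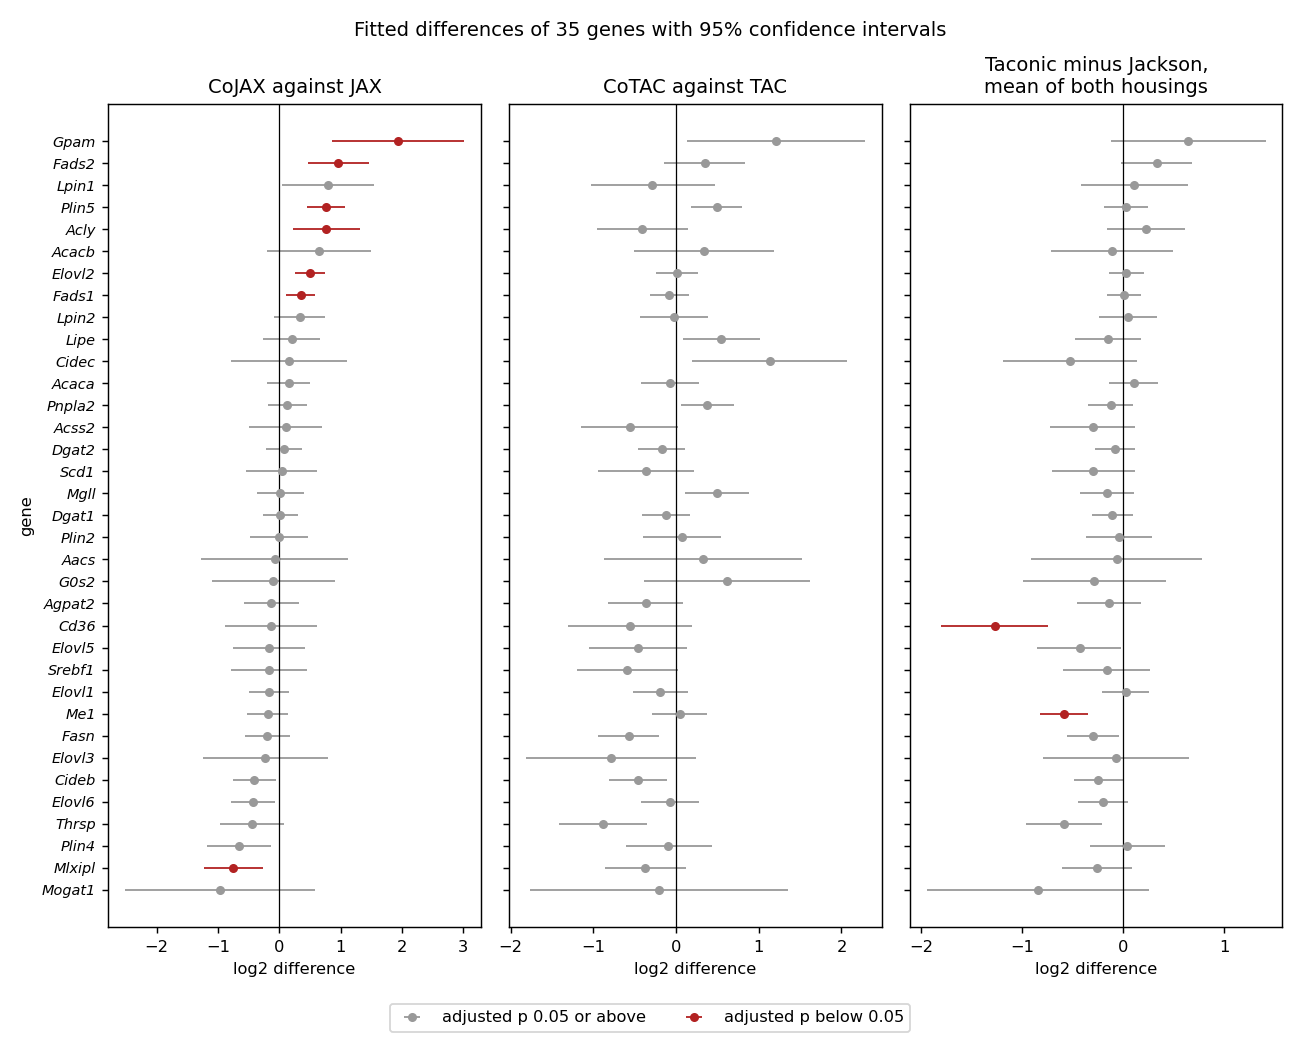
Fitted log2 differences of the 35 tested genes with 95% confidence intervals, for CoJAX against JAX, CoTAC against TAC and the vendor difference averaged over both housings; red marks an adjusted p below 0.05. In the first panel 7 genes are red, in the second none, and in the third Cd36 and Me1.

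Elovl3, Elovl5 and Agpat2 moved with the clock genes of the library inside the groups. Arntl and Dbp are clock genes that peak at opposite times of day in mouse liver, and log2(Arntl + 0.5) minus log2(Dbp + 0.5) was used as an index, chosen after the data were seen. The index was -4.24, 3.56 and -5.50 in JAX, 2.26, -6.28 and 0.23 in CoJAX, 4.28, 4.52 and -5.26 in TAC and -4.94, -4.74 and 2.73 in CoTAC. Each group thus held libraries above and below 0, but in proportions that differed between groups. Of 11 other clock genes 9 moved with it, 2 up and 7 down. Between groups 0 of 13 clock genes passed in the 6 comparisons. The spread was wide, with Dbp at 2.88 ± 2.13 in CoTAC against TAC (adjusted p = 0.41), so that count cannot show the groups to be balanced. Fitted beside the groups, the index had 3 of the 35 genes past the threshold, all rising with it (8.57%, against 1.39% of all genes, or 0.73% rising). Unadjusted, 15 of the 35 had a p under 0.05, against 1651 of 12056 genes.

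Elovl3, an elongase of the liver known for daily and sex-dependent expression in mice, was listed at 258, 496 and 246 RPKM in JAX, 445, 151 and 292 RPKM in CoJAX, 556, 465 and 189 RPKM in TAC and 153, 199.9 and 311 RPKM in CoTAC. In every group the libraries with an index above 0 held more Elovl3 than those below 0. Its slope was 0.137 ± 0.014 (log2 per unit of the index, adjusted p = 0.000609), and it passed with any library left out. Elovl5 was listed at 207, 242 and 166 RPKM in JAX, 233, 129 and 198 RPKM in CoJAX, 176, 224 and 117 RPKM in TAC and 121, 96.8 and 151 RPKM in CoTAC. Its libraries with an index above 0 again lay above those below 0 in each group, but the order among libraries on the same side differed from that of Elovl3 in TAC and CoTAC. The slope of Elovl5 was 0.072 ± 0.012 (adjusted p = 0.0146), and it was lost without TAC 3 or CoJAX 2 (adjusted p = 0.106 and 0.083).

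Agpat2 was listed at 216, 279.9 and 215 RPKM in JAX, 250.1, 182 and 218 RPKM in CoJAX, 280.1, 270.3 and 166 RPKM in TAC and 162, 170.5 and 211 RPKM in CoTAC. It had the same split at an index of 0 in each group, with a slope of 0.056 ± 0.009 (adjusted p = 0.0108), lost without TAC 3 (adjusted p = 0.08). Fasn, Srebf1 and Gpam did not pass, at -0.004 ± 0.015, -0.06 ± 0.019 and -0.058 ± 0.042 (adjusted p = 0.926, 0.176 and 0.547). Srebf1 had an unadjusted p of 0.00835 (limma-trend). With the index in the fit, Elovl5 and Fads2 also passed for TAC against JAX, at -0.52 ± 0.14 (adjusted p = 0.0499) and 0.78 ± 0.19 (adjusted p = 0.0353). The hour at which livers were taken was not among the labels used here.

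The upstream sequences of Elovl5 (chr9:77917165-77917364, plus strand) and Agpat2 (chr2:26604418-26604617, minus strand) are shown because clock factors bind E-boxes; build, length and capitals are as above.
Elovl5: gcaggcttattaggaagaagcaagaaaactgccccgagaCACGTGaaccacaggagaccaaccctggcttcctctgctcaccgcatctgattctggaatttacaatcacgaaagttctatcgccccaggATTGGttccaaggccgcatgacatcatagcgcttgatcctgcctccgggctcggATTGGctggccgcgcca
Agpat2: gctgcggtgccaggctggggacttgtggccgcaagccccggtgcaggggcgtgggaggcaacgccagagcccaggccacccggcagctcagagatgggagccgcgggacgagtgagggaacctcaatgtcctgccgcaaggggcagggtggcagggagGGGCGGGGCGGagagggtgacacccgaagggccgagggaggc
Elovl5 held the E-box letters 161 bases upstream of the start and 2 CCAAT boxes. Agpat2 held 2 overlapping GC boxes and no E-box in this window.

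**Figure D5:**
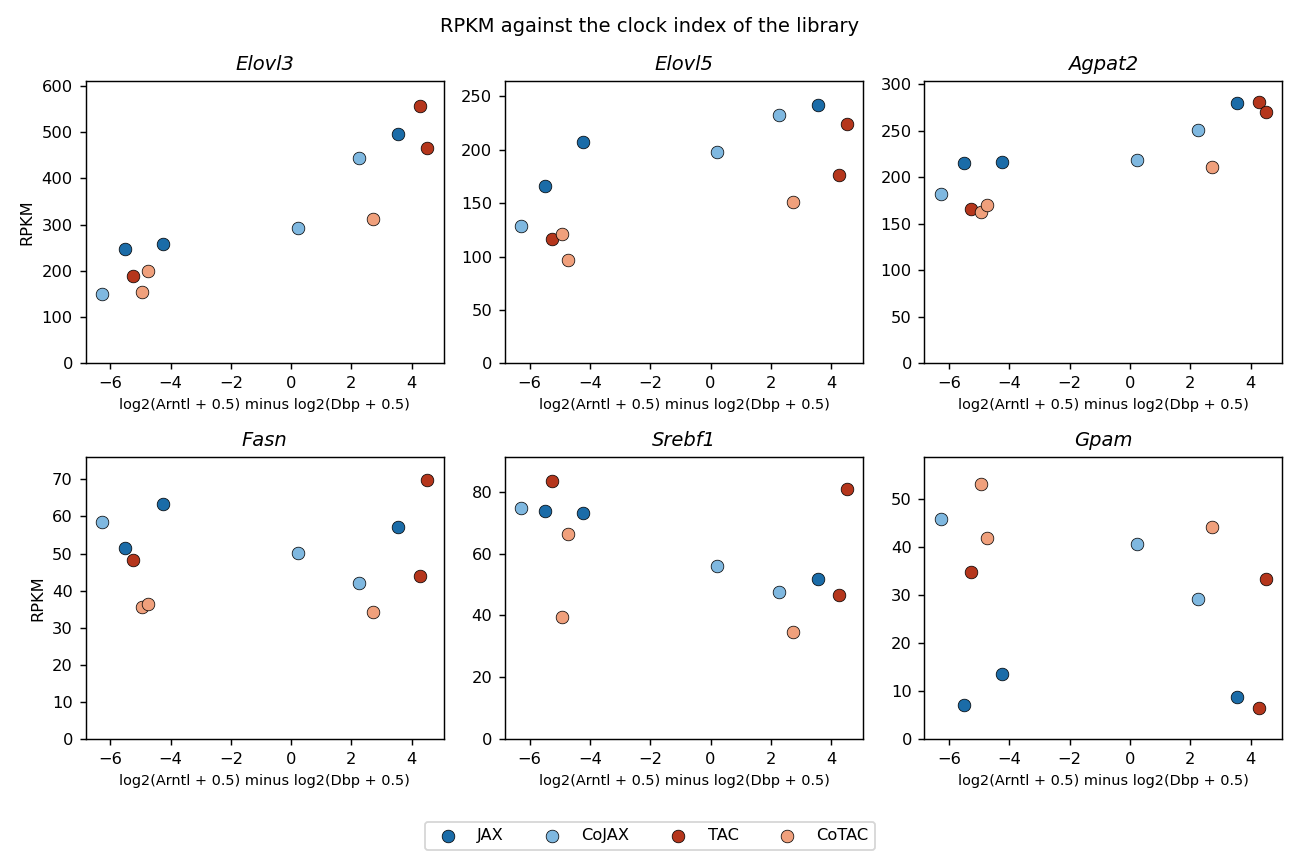
RPKM of 6 genes against the clock index of the library, log2(Arntl + 0.5) minus log2(Dbp + 0.5), with a point per library. In each group Elovl3, Elovl5 and Agpat2 are higher in the libraries with an index above 0 than in those below 0, while Fasn, Srebf1 and Gpam did not pass.

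Beyond the 36, 79 related genes of the same pathways were listed and 73 tested. In CoJAX against JAX 9 were higher and 3 lower (16.4% against 24.1% of all genes). Unadjusted, 26 of the 73 had a p under 0.05, against 4676 of all 12058 genes. In the list of other droplet, lipolysis and export genes 3 of 26 were higher and 1 lower, with a median of -0.10. Apob, the protein of very-low-density lipoprotein, rose by 1.13 ± 0.20 (adjusted p = 0.00593), and Mttp, which loads it with lipid, by 0.59 ± 0.11 (adjusted p = 0.00596). In the list of regulators and their partners 3 of 16 were higher and 0 lower, with a median of -0.02. Of the processing machinery of SREBP, Scap and Mbtps1 rose by 0.49 ± 0.16 and 0.68 ± 0.13 (adjusted p = 0.0386 and 0.00746), and Mbtps2 did not pass. Acsl4, Agpat6, Mcat and Rxra were also higher, and Taldo1 and Tecr lower, at -0.40 and -0.50 (adjusted p = 0.042 and 0.0219). Taldo1 and Tecr had medians of 27.3% and 35.3% of albumin. The 770 genes above 25% had a median difference of -0.44, and the part of that level here was not tested. Both calls were lost with quantile normalization. Taldo1 passed in 2 of the 12 omissions, and Tecr was lost without JAX 2, JAX 3, CoJAX 2 or CoJAX 3. With depth in the fit 0 of the 73 passed, with Apob at 1.19 and Mttp at 0.64 (adjusted p = 0.0613 and 0.0522). The count was 7 without JAX 3 or CoJAX 3 and 4 without CoJAX 2 (11.9%, 13.4% and 10.6% of all genes). Scap was lost without JAX 1, JAX 2, JAX 3, CoJAX 2 or CoJAX 3 (adjusted p up to 0.137) and with no filter on low values.

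The pair of FITM genes, which help droplets bud from the endoplasmic reticulum, went opposite ways. Fitm2 was listed at 9.96, 12.1 and 11.9 RPKM in JAX, 28.6, 39.2 and 28.1 RPKM in CoJAX, 10.1, 21.3 and 27.1 RPKM in TAC and 42.5, 40.0 and 42.4 RPKM in CoTAC, and CoJAX exceeded JAX by 1.45 ± 0.27 (adjusted p = 0.00695). Fitm1 was listed at 256, 244 and 243 RPKM in JAX, 149, 99.1 and 153 RPKM in CoJAX, 124, 108 and 109.8 RPKM in TAC and 53.3, 95.4 and 54.0 RPKM in CoTAC. JAX was above every other library, and in each housing the Taconic mice lay below the Jackson mice. Fitm1 stood at -0.91 ± 0.22 (adjusted p = 0.0137) in CoJAX against JAX, at -1.12 ± 0.22 (adjusted p = 0.0276) in TAC against JAX, and at -1.06 ± 0.15 (adjusted p = 0.00727) for the averaged vendor difference. In TAC against JAX 3 of the 73 passed (4.11% against 4.09% of all genes): Mbtps1 and Mcat were higher and Fitm1 lower. That count was 0 with depth in the fit, 0 or 1 without any single library other than TAC 1 and CoTAC 2, and 15 without TAC 1, when 17.6% of all genes passed. The averaged vendor difference had 0 higher and 3 lower, Fitm1, Ces1g and Fabp2, at -0.47 ± 0.10 (adjusted p = 0.0351) for Ces1g and -0.65 ± 0.15 (adjusted p = 0.0444) for Fabp2. Of these Fitm1 alone passed with depth in the fit (adjusted p = 0.0278). The count ranged from 1 to 15 over the 12 omissions, with 15 without TAC 1 and 8 without CoTAC 2 (15.9% and 6.78% of all genes). Fitm1 passed in all 12 omissions, Ces1g in 4 and Fabp2 in 2. Ces1g and Fabp2 also missed the threshold with quantile normalization and with no filter on low values. Between CoTAC and TAC the single call was Insig1, which holds SREBP back, at -0.76 ± 0.12 (adjusted p = 0.0222). It was lost with depth in the fit and with only the 6 libraries compared (adjusted p = 0.129 and 0.159), and without TAC 1, TAC 2 or CoTAC 3 (adjusted p = 0.0818, 0.0776 and 0.0791). Without TAC 3 there were 18 calls among the 73, when 12.7% of all genes passed, and without CoTAC 2 there were 4, when 3.14% did. Between CoTAC and CoJAX and for the interaction limma-trend made 0 calls. Unadjusted, 17 and 11 had a p under 0.05, against 1304 and 1358 of all 12058 genes. Hilpda, a droplet protein that inhibits lipolysis, and Insig2 rose with the clock index, by 0.115 ± 0.015 and 0.107 ± 0.015 (adjusted p = 0.00392 and 0.00484).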

How the data were processed

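The deposited data are 1 table of RPKM values, made by the authors, with a column for each of the 12 libraries (4 groups). Per the labels' protocols, poly(A) RNA was selected from TRIzol-extracted liver RNA and made into libraries with a ThruPLEX kit. The submitters' processing notes list Bowtie 1.0.0, Cuffdiff 2.1.1 and the build mm9, and give them no role. The annotation, the strand setting and duplicate handling were not among the sources used here. Library codes in the titles tied columns to samples, and value columns without a sample numbered 0. Of 23936 lines, 27 carried date numbers in place of symbols (0.16% to 0.2% of the RPKM) and were left out.

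The depth of each library relative to JAX 1 came from the spacing of its values below 0.6 RPKM. One limma-trend model (limma 3.58.1, R 4.3.3) was fitted to log2(RPKM + 0.5) of the 12058 genes that reached 1 RPKM in 3 or more libraries, with 4 groups and no block. Fold changes of low genes are understated on this scale. The spread of each gene was estimated over all 4 groups together and drawn toward the trend of spread with level. This was done because 3 libraries against 3 give an exact permutation p of 0.1 at best. On simulated data for TAC against JAX (12058 genes, 200 changed), 62% of changes of 1 and 90% of changes of 2 (log2) were recovered, with 11 false calls. The simulated noise was independent between genes, with no difference in depth and no flattening of high values, so these figures need not hold for the real libraries. Same-numbered libraries did not deviate together (correlations of -0.174 to 0.151 over 18 pairs), so no pairing by number was seen. With 3 libraries a group this cannot exclude a pairing, for instance by cage, which was not among the labels used here. Calls lost with a block on these numbers are given below.

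The genes and lists were chosen with earlier results of these data known, and the clock index after the data were seen. Values of every library are given for genes that passed a comparison and for Srebf1, Mlxipl, Fasn, Acaca, Scd1, Dgat2, Plin2, Pnpla3 and Cd36. Those of Elovl3, Elovl5, Agpat2 and the FITM genes were added for the clock index and the related genes. Promoter letters were searched on both strands of the 250 bases upstream. Alternatives were pseudocounts of 0.1 and 1, no filter, median-ratio or quantile scaling, depth or the replicate number in the fit, a correction of values near the albumin level, only the libraries compared, and each library left out. Reads shared with near-identical copies cannot be told apart.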

Additional observations from a re-analysis of the deposited data

Results flagged for a closer look

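Fads1 was flagged because the vendor difference had opposite signs in the 2 housings: every TAC library lay above every JAX library, and every CoTAC library lay below every CoJAX library. The test of that difference, the interaction, gave -0.43 ± 0.16 (log2; adjusted p = 0.33, unadjusted p = 0.0166, limma-trend), which did not pass. The value -0.433 is the cohoused vendor difference minus the one apart. JAX was the lowest group and also the shallowest.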

How the results depend on the processing

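Every alternative kept the sign of the 13 single-gene results (278 of 278), and 212 stayed on the same side of the threshold while 66 no longer passed. The cause was not tested where none is named. In the counts of the 35 genes past the threshold, CoJAX against JAX had 0 with depth in the fit in place of 7, and 5 to 9 under the other settings. With single libraries left out it had 2 to 8. It fell to 4, 3 and 3 without JAX 1, 2 and 3, when 19%, 14.1% and 11.9% of all genes passed. It fell to 2 and 4 without CoJAX 2 and CoJAX 3, when 10.6% and 13.4% of all genes passed. The share of all genes was 24.1% in the fit reported and 0.323% with depth in the fit. TAC against JAX had 0 in place of 1 with quantile normalization, with only the 6 libraries compared and with the replicate block (6.72%, 0.108% and 0.522% of all genes). It had 3 with the clock index in the fit (7.64% of all genes), an alternative added after the data were seen. With single libraries left out it had 0 to 4, 4 being the count without TAC 1 (17.6% of all genes). The averaged vendor difference had 1 in place of 2 with quantile normalization (4.94% of all genes) and 0 with the replicate block (0.597%). It had 3 with the clock index in the fit (Cd36, Elovl5 and Me1), when 7.19% of all genes passed. With single libraries left out it had 0 to 5, again highest without TAC 1 (15.9% of all genes). It had 0 without JAX 2, TAC 2, CoJAX 1, CoJAX 3, CoTAC 1 or CoTAC 3 (0.375% to 0.752% of all genes). CoTAC against TAC had 1 with quantile normalization (Plin5), when 0.813% of all genes passed. With single libraries left out it had 0 to 4, 4 without TAC 3 (Agpat2, Cideb, Lipe and Thrsp), when 12.7% of all genes passed. CoTAC against CoJAX had 0 to 2, with Cd36 and Thrsp passing without CoTAC 2 (1.91% of all genes). The interaction had 0 throughout. The clock index had 3 or 4 under all settings and 1 to 4 with single libraries left out, Elovl3 alone without TAC 3 (0.541% of all genes).

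The replicate block takes same-numbered libraries as pairs, although no pairing was seen or is given by the labels. It gave 5 calls for CoJAX against JAX (19.1% of all genes), with Acly and Fads1 lost (adjusted p = 0.0582 and 0.0567). It gave 0 for TAC against JAX, with Me1 lost (adjusted p = 0.0657). For the averaged vendor difference it gave 0, with Me1 and Cd36 lost (adjusted p = 0.059 and 0.06). Depth limits the rare members, Pnpla3 and Mogat1, and the level near albumin may limit or shift differences of the 10 most abundant.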

Other observations

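CoJAX 2 was the highest of the 12 libraries for 9 of the 35 genes (25.7%, against 7.85% of all genes): Acaca, Dgat2, Elovl2, Fads1, Fads2, Lipe, Lpin1, Mgll and Pnpla2. JAX 2 was the highest for 5 (14.3% against 9.33%): Elovl5, Elovl6, Me1, Mlxipl and Thrsp. TAC 2 was the highest for 4 (11.4% against 5.44%): Acly, Acss2, Fasn and Scd1. Each of the other 9 libraries was the highest for 0 to 3. Within TAC, Acly was 66.2, 154 and 86.2 RPKM and Acss2 99.7, 221 and 107 RPKM.

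Of 10 genes of the fasting response, Cpt1a, which admits fatty acids to mitochondria for oxidation, was the single one to pass a group comparison. It was listed at 90.6, 80.0 and 84.7 RPKM in JAX, 130.1, 193 and 119 RPKM in CoJAX, 80.7, 96.9 and 128 RPKM in TAC and 198, 143 and 156 RPKM in CoTAC, and CoJAX exceeded JAX by 0.76 ± 0.20 (adjusted p = 0.0212), against 0.59 with depth in the fit (adjusted p = 0.192). It did not pass without JAX 2, JAX 3 or CoJAX 2 (adjusted p up to 0.0794). Of all genes 24.1% passed in CoJAX against JAX, and the median of the 10 fasting genes there was -0.17. Their median was -0.39 for CoTAC against TAC, -0.27 for CoTAC against CoJAX and 0.05 for TAC against JAX. Unadjusted, 2 of the 10 had a p under 0.05 in CoJAX against JAX, against 4676 of all 12058 genes. In CoTAC against TAC 3 did, against 2964, and in the other pairs of groups none did. Of 3 genes of the fed state 0 passed in the 6 group comparisons, with 1 at an unadjusted p under 0.05 in CoTAC against TAC. Tested genes with an annotated transcript were split by their longest transcript into 4 bins of near-equal size. Short ones were lower and long ones higher in CoJAX than in JAX, with medians of -0.33, -0.03, 0.11 and 0.17 (log2) from the shortest bin to the longest. The medians of the shortest and the longest bin were -0.24 and 0.11 for TAC against JAX, -0.25 and 0.19 for CoTAC against TAC and -0.14 and 0.13 for CoTAC against CoJAX. Gpam, with a transcript of 6172 nucleotides, was in the longest bin, and Plin5, with 1986, in the shortest.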
